A study of Mus musculus with 8 samples.

Results

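Differentiating mouse adipocytes given an inhibitor of miR-182 were compared with control-transfected cells, gene by gene. The comparison used 4 of the 8 samples of the series, 2 of the inhibitor group (inhibitor_182) and 2 of the control group (NC), and it was read from the authors' table of this pair, which lists 18933 genes. Members of the comparison were the 12930 genes with an FPKM (fragments per kilobase of transcript, scaled between libraries, so a level per length) of 1 or more in either group. Of these, 12846 had a test in the table, and they are called measured genes here. In both groups, primary cells of the stromal vascular fraction, the non-floating cells of collagenase-digested fat, were transfected before confluence with Lipofectamine RNAiMAX. The inhibitors were locked nucleic acids at 100 nM, chemically stabilised oligonucleotides that pair with a microRNA and block it. After 8 h the cells were returned to full medium and then given insulin at 850 nM, dexamethasone at 0.5 µM, IBMX at 250 µM and rosiglitazone, the usual adipogenic mixture, and RNA was harvested at day 4. The labels name neither the fat depot nor the oligonucleotide of the control group, and the series title speaks of brown adipocytes. Genotype, strain and age are not given in the labels. Inhibitors of miR-203 and miR-708, with 2 samples each, were used here for levels side by side, and for calls only among described miR-182 targets.

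Each group has 1 value per gene, which the table's headers name by the group alone, so the values are taken as pooled over its 2 samples. No replicate spread can be computed from them, and sequencing depth is unknown. Nothing in the labels ties the paired samples of a group to separate animals or cultures, so the p-values may reflect technical spread alone. "Rose" and "fell" are used below only for genes at q below 0.05 in the authors' deposited table, and the log2 ratio is log2((inhibitor FPKM + 1)/(control FPKM + 1)), which understates changes of low genes. Folds are plain ratios of the 2 pooled FPKM.

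A microRNA guides the Argonaute protein to messenger RNAs that carry a match to its seed, the bases near its 5′ end, usually in the 3′ untranslated region (UTR), and lowers their stability and translation. Messages freed from a blocked microRNA are therefore usually looked for among those with seed matches. miR-182 is made from the same cluster as miR-96 and miR-183, and these relatives are best known from sensory organs. Brown adipocytes, the cells the series title names, burn fatty acids in mitochondria that are uncoupled by Ucp1, and they share the adipogenic programme of Pparg and Cebpa with white adipocytes.

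The mature microRNAs are shown because the seed decides which messages can be paired. The sequences are from RefSeq (GRCm38.p6), 5′ to 3′, with the seed, bases 2 to 8, in capitals. The seeds of the 3 cluster members are alike but not the same, and miR-203-3p and miR-708-5p, the targets of the other inhibitors, have unrelated seeds.
mmu-miR-182-5p (chr6:30165962-30165986, minus strand): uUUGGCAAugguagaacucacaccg
mmu-miR-96-5p (chr6:30169506-30169528, minus strand): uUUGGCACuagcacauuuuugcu
mmu-miR-183-5p (chr6:30169711-30169732, minus strand): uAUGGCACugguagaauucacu
mmu-miR-203-3p (chr12:112130927-112130948, plus strand): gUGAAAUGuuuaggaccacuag
mmu-miR-708-5p (chr7:96249450-96249472, plus strand): aAGGAGCUuacaaucuagcuggg
Mir182, Mir96, Mir183 and Mir203 have no line in the authors' deposited table under these symbols, so these values do not show how far miR-182 was blocked.

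Matches to the miR-182 seed were searched in 3′ UTRs of GENCODE M21 on GRCm38, the build (mm10) of the submitters' processing notes. An 8mer pairs with the seed and is followed by an A (TTGCCAAA), a 7mer-m8 lacks that A (TTGCCAA), a 7mer-A1 lacks the pairing to base 8 (TGCCAAA), and a 6mer has neither (TGCCAA). The sites below are 8mers, in capitals with their flanks, in genes whose values are given further on. Mitf, Isyna1 and Thbs2 rose, Mtss1 fell, and Cttn and Rac1 were not called.
Mitf (chr6:98020930-98020959, plus strand): accttctgactTTGCCAAAaactgtgcaag
Isyna1 (chr8:70597248-70597277, plus strand): tacttcagcccTTGCCAAAgacaataaagc
Thbs2 (chr17:14666517-14666546, minus strand): aaaagctgcttTTGCCAAAtttggtaatgc
Cttn (chr7:144436099-144436128, minus strand): ctgtgttctttTTGCCAAAtatgttcagtt
Mtss1 (chr15:58941487-58941516, minus strand): aatataaactgTTGCCAAAttcaatgtaga
Rac1 (chr5:143506688-143506717, minus strand): cagattaaaaaTTGCCAAAataccttctga
The Isyna1 UTR has 92 bases, and its match begins at base 61. The annotation of the deposited loci is not that of GENCODE M21, so a UTR used for counting may have differed.

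The cultures carried adipocyte messages in both groups. Adipoq (adiponectin) had 1178 FPKM in control cells and 1904 in inhibitor-treated cells, Plin1 (the perilipin of lipid droplets) at 649.6 and 645, Elovl3 (a brown fat elongase) at 286 and 281, and Fabp4 (the adipocyte fatty acid binding protein) at 37475 and 34042. The brown fat markers Ucp1, Cidea, Cox8b and Cox7a1 fell, unlike Elovl3, and Prdm16 was not called, with values given further on. Most markers of other cell types were low. Of the 16 macrophage markers listed, 2 were measured, with sums over the 9 in the table of 7.98 FPKM (control) and 4.76 (inhibitor), and Csf1r (the macrophage growth factor receptor) was at 0.169 and 0.302. None of the 12 lymphocyte and dendritic markers was measured. Of the 10 endothelial markers only Egfl7, a secreted factor, was measured, at 22.6 and 29.2 FPKM, which made up most of the list's sums of 24.9 and 32.5. Pecam1 and Cdh5, which define endothelium, were under 0.7 FPKM in both groups. Sums over the mesothelial list were 5.76 and 9.14 FPKM, over the smooth muscle and pericyte list 37.1 and 35.9, over the skeletal muscle list 9.15 and 7.97, and over the Schwann and neural list 16.2 and 15.9. In bulk samples such as these, fewer cells of a type and less RNA per cell cannot be told apart.

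The miR-182 inhibitor group differed from the control by many modest changes. In the authors' deposited table, calls were made for 2105 of 14391 tested genes (14.6%), 1209 higher (8.4%) and 896 lower (6.23%). Among the 12846 measured genes, 1984 were called (15.4%), 1121 higher (8.73%) and 863 lower (6.72%). These shares are the background for the counts that follow. The median fold of the called measured genes was 1.72 for rises and 1.56 for falls, and the smallest called folds were 1.27 and 1.28. The log2 ratio of all measured genes had a median of -0.014, and 90% of them lay between -0.60 and 0.68. Only 211 genes reached 2-fold higher and 166 reached 2-fold lower on the log2(FPKM + 1) scale. The lowest q in the authors' deposited table, 0.00176, was shared by 1189 called genes and so does not rank them.

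**Figure D1:**
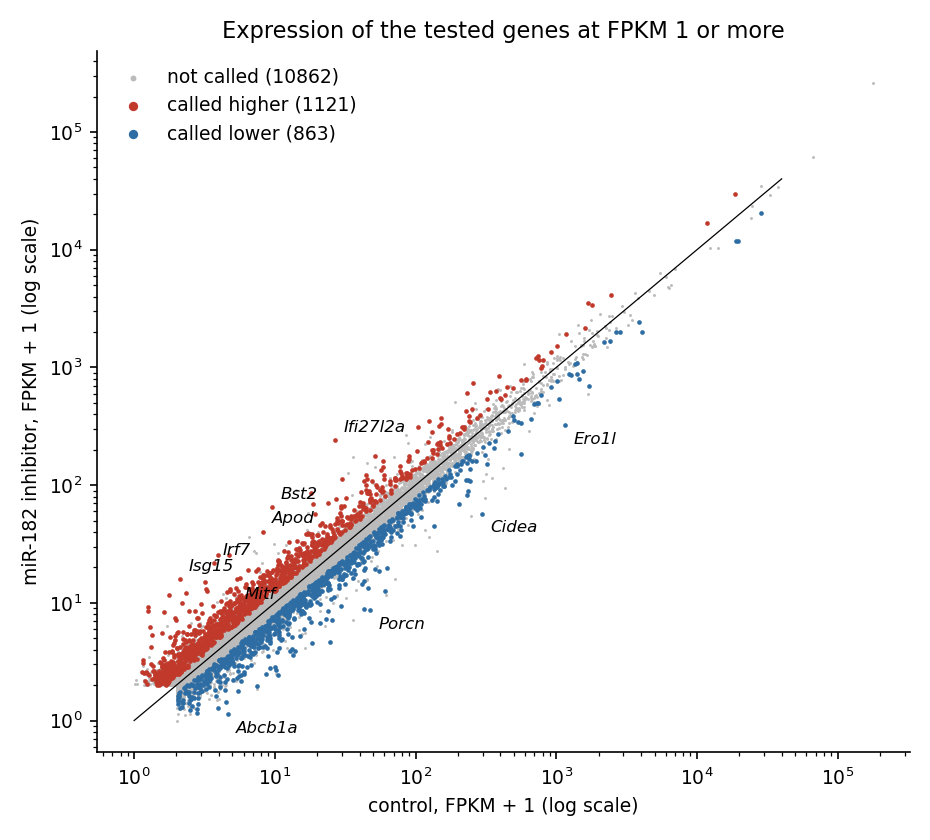
Pooled FPKM + 1 of the 12846 measured genes in the control (horizontal, log scale) and with the miR-182 inhibitor (vertical, log scale), with the 1121 genes called higher in red, the 863 called lower in blue and the line of equality. Ifi27l2a, Isg15 and Bst2 lie far above the line and Porcn, Cidea and Abcb1a far below it, while most genes lie close to it.

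Genes with a miR-182 seed match did not stand out by their levels. The 526 measured genes with an 8mer had a median log2 ratio of -0.0485, against -0.0082 for the 7654 genes with no site. Genes with a 7mer-m8 (718) had a median of -0.0171, those with a 7mer-A1 (802) of 0.0002 and those with a 6mer (1420) of -0.0083. Of the 8mer genes, 51 rose (9.70%) and 35 fell (6.65%), beside 720 (9.41%) and 583 (7.62%) of the genes with no site. The 100 genes with 3 or more sites of 7 or 8 bases had 13 rises and 8 falls, with a median of -0.0009. For 8mers of microRNAs whose inhibitors were given to neither group, the median was -0.0037 (miR-203, 511 genes) and 0.0233 (miR-708, 244 genes). Site classes differ in UTR length and level, with a median UTR of 2434.5 bases for 8mer genes and 692.5 for genes with no site, and the part of these in the medians was not tested.

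**Figure D2:**
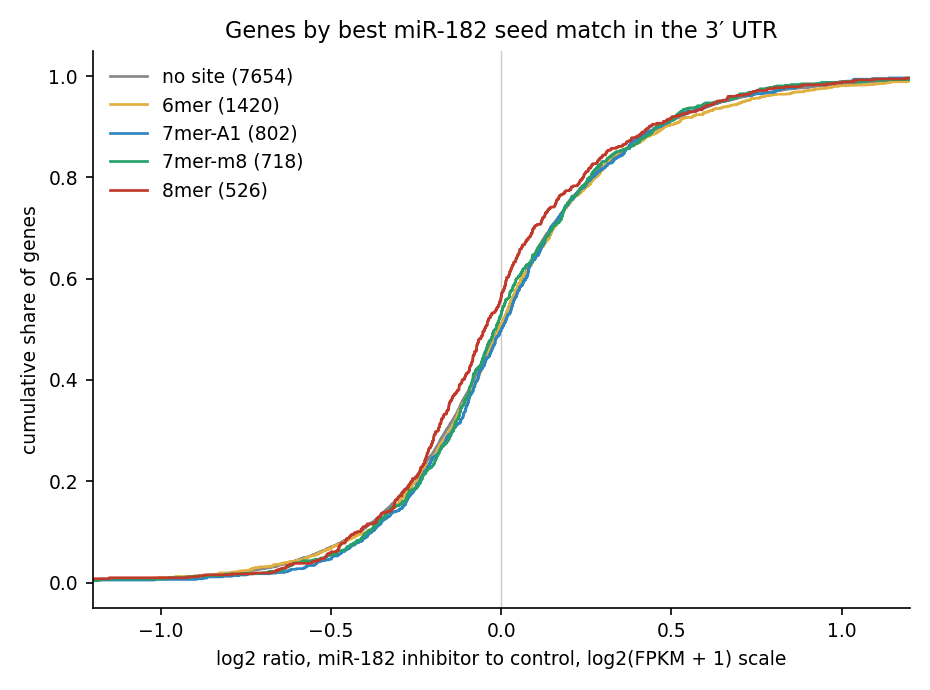
Cumulative share of measured genes (vertical) by log2 ratio of the miR-182 inhibitor group to the control (horizontal, log2(FPKM + 1) scale), for genes grouped by the best miR-182 seed match in the 3′ UTR. The 5 curves nearly coincide, and the curve of the 526 genes with an 8mer runs slightly to the left of the others near 0, where its median is -0.0485.

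Of 21 genes that have been described as miR-182 targets in other systems, 19 were measured, 5 rose and 1 fell, with a median log2 ratio of -0.014. Mitf, the microphthalmia transcription factor of melanocytes and osteoclasts, went from 4.29 to 8.08 FPKM, 1.88-fold higher with q = 0.0172 in the authors' deposited table. It stood at 3.81 and 2.84 FPKM in the miR-203 and miR-708 inhibitor groups, so the miR-182 inhibitor group was alone at the upper level. Pdgfra, the PDGF receptor of mesenchymal progenitors, went from 10.9 to 20.8 FPKM, and its only longer match is a 7mer-A1. Insig1, which retains SREBP in the endoplasmic reticulum, went from 219 to 313 FPKM, and Thbs1, a secreted activator of latent TGF-beta, from 9.39 to 12.8, each with a 7mer-m8. Brca1, of DNA repair, rose from 5.78 to 8.79 FPKM and had no match in the UTR searched. Mtss1, an actin and membrane scaffold with an 8mer, fell from 15.4 to 8.88 FPKM. Against the same control, Pdgfra and Mtss1 were also called with both other inhibitors at the authors' q below 0.05. Thbs1 was also called with the miR-203 inhibitor but not with the miR-708 inhibitor. Mitf, Brca1 and Insig1 were called with neither.

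The remaining measured genes of that group were not called. Foxo1, a forkhead factor of insulin action with an 8mer, stood at 15.5 and 16.1 FPKM, and Foxo3, its relative with 2 8mers, at 9.69 and 8.76. Cttn (cortactin) stood at 81.3 FPKM in the control, 112 with the miR-182 inhibitor, and 86.4 and 87.4 with the others. It was not called, with q = 0.165 in the authors' deposited table, although the miR-182 inhibitor group had the top value of the 4. Adcy6, an adenylyl cyclase, stood at 44.9 and 49.3 FPKM, Rac1, a small GTPase, at 149.5 and 141, and Clock, of the circadian clock, at 12.1 and 11.999. Rasa1, Tnip1 and Sesn2, each with an 8mer, had log2 ratios of -0.23, -0.27 and -0.21 and were not called. Cyld, with a 7mer-m8, and Pdcd4, Smad4 and Fbxw7, with no match, had log2 ratios of 0.064, -0.25, -0.31 and -0.11, also not called. Bcl2 and Rgs17 were under 1 FPKM in both groups.

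Among all genes with an 8mer, the 10 with the largest rise at 5 FPKM or more had diverse roles. Isyna1, which makes inositol from glucose 6-phosphate, went from 6.54 to 18.2 FPKM, 2.78-fold higher, beside 12.4 and 12.2 in the other inhibitor groups. Thbs2, a matricellular thrombospondin, went from 16.1 to 37.9 FPKM, and Srpx2, a secreted sushi-repeat protein, from 3.23 to 7.47. Bmper, a BMP-binding secreted protein, reached 25.1 FPKM from 13.2, and Mc5r, the melanocortin receptor of adipocytes, 30.4 from 14.9. Colec12, Slc35b4, Rnase4 and Pdzd2 rose by 2.28, 2.06, 1.88 and 2.09-fold. These 10 were picked by their rise, and for 9 of them, all but Mitf, the other inhibitor groups lay between the control and the miR-182 inhibitor group.

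The miRNA machinery had 1 rise and 1 fall among 16 measured genes, beside 8.73% and 6.72% of all measured genes. Tnrc6b, a partner of Argonaute, rose from 5.55 to 7.17 FPKM and Prkra, a partner of Dicer, fell from 22.9 to 17.2. Dicer1, the nuclease that cuts hairpins, stood at 6.69 and 6.28 FPKM and Drosha, its nuclear counterpart, at 9.89 and 12.2, and neither was called.

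Many of the genes with the largest rises are known as interferon-stimulated. Type I interferon acts through Stat2, Irf9 and their partners on a promoter element, the interferon-stimulated response element (ISRE), and the induced proteins degrade viral RNA, present peptides on class I molecules and amplify the response through Irf7. Ifi27l2a, a small interferon-induced membrane protein, had 25.9 FPKM in control cells and 241 after the miR-182 inhibitor, 9.30-fold higher. It was at 115 with the miR-203 and 124 with the miR-708 inhibitor, between these values. Isg15, a ubiquitin-like modifier, went from 1.13 to 14.9 FPKM, 13.1-fold higher. Bst2 (tetherin), which holds budding virus at the membrane, went from 8.53 to 64.2 FPKM, 7.52-fold higher. Each of these 3 genes had the authors' lowest q, 0.00176, in the authors' deposited table.

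Of 26 measured antiviral effectors 18 rose, 1 fell and 7 were not called, with a median log2 ratio of 1.06, beside -0.014 over all measured genes. In this list, 12 of the 26 passed 1 FPKM only through the inhibitor group, which favours rises. At a mean FPKM of 1 or more the median was 1.03. That filter also lets in genes through a high inhibitor value alone, so it does not remove this bias. Oasl2, Rtp4 and Xaf1, named next, were under 1 FPKM in the control. Oasl2, a 2′-5′ oligoadenylate synthetase-like protein, went from 0.247 to 7.53 FPKM, Rtp4, an interferon-induced transporter protein, from 0.261 to 8.13, and Xaf1, an inhibitor of XIAP, from 0.640 to 7.31. At higher levels, Ifitm3, which blocks viral entry, rose from 50.6 to 174 FPKM. Zc3hav1, a zinc finger protein that binds viral RNA, fell from 14.2 to 10.9 FPKM, and Isg20, an exonuclease, stood at 7.66 and 8.97 and was not called.

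Some sensors and transcription factors of the pathway rose as well. Of 11 measured nucleic acid sensors 5 rose and none fell, but 2 of the 11, Ifih1 and Zbp1, were measured only through the inhibitor group. Ifih1 (MDA5), a sensor of long double-stranded RNA, went from 0.808 to 4.15 FPKM, Ddx58 (RIG-I), of short 5′-triphosphate RNA, from 3.77 to 7.92, and Tmem173 (STING), the adaptor of cytosolic DNA sensing, from 1.40 to 2.89. Zbp1, which binds Z-form nucleic acid, and Eif2ak2 (PKR) reached 2.09 FPKM from 0.161 and 11.2 from 5.93. Mavs, the mitochondrial adaptor, stood at 62.6 and 56.3 FPKM and was not called. Of 11 measured IRF and STAT factors 3 rose, among them Irf7 from 2.70 to 20.9 FPKM (in the authors' deposited table q = 0.0135, in a locus shared with 1 other gene) and Stat2 from 3.36 to 7.56. In all 11 the miR-182 inhibitor value was above both other inhibitor groups, beside 36.0% of all measured genes. Irf3, the constitutive factor upstream of interferon, stood at 65.3 and 62.9998 FPKM. Of the interferon receptors and their kinases only Usp18, which restrains the receptor, rose, from 0.350 to 4.36 FPKM, among 9 measured. Usp18 was measured only through the inhibitor group, which favours rises. The median log2 ratio of the 9 was -0.072.

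Interferon-induced GTPases, which attack vacuoles of intracellular pathogens, were mostly low in control cells. Of 8 measured 7 rose, but 6 of the 8 passed 1 FPKM only through the inhibitor group, which favours rises. Gbp3 went from 0.299 to 5.22 FPKM, Gbp2 from 0.966 to 4.18, and Gbp7 from 0.199 to 1.17. The immunity-related GTPases Iigp1 (2.29 to 11.5 FPKM), Irgm1 (0.981 to 6.12), Irgm2 (0.956 to 3.85) and Igtp (0.309 to 1.997) rose as well. Irgq, a distant relative of these GTPases, stood at 12.1 and 13.5 FPKM and was not called.

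Promoters of 4 of these genes are shown because the genes rose and their promoters hold the ISRE core. They run from 250 bases before to 50 bases after the RefSeq start on GRCm38.p6, in the direction of the gene, with the ISRE core, GAAA, any 2 bases and GAAA on either strand and overlapping matches joined, in capitals.
Isg15 (chr4:156200769-156201068, minus strand): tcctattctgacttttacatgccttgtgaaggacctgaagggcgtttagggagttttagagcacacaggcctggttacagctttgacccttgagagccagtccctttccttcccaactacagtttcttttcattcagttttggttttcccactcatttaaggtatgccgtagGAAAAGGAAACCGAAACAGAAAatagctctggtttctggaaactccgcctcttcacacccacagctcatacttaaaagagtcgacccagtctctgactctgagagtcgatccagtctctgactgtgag
Irgm1 (chr11:48871371-48871670, minus strand): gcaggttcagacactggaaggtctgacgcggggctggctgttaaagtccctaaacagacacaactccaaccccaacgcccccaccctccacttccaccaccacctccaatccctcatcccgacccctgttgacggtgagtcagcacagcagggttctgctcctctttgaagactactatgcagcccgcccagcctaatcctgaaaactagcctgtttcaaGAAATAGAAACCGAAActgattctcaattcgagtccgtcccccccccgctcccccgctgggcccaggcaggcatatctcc
Gbp3 (chr3:142559794-142560093, plus strand): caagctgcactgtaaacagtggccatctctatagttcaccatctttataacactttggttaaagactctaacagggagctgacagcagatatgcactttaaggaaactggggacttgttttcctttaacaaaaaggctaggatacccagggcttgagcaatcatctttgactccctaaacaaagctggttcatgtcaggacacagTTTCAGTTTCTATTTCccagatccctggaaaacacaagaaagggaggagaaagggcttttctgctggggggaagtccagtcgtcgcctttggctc
B2m (chr2:122147437-122147736, plus strand): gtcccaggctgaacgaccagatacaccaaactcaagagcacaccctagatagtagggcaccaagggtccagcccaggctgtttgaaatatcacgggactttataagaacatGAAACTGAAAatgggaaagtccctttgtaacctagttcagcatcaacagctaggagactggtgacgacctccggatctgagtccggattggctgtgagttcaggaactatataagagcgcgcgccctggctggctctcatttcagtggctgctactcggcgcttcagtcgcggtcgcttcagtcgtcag
In Isg15 there were 3 overlapping cores, which begin 78 bases before the start. Of the 8 tested GTPase genes matched to a promoter 6 held the core, as did 10 of 24 antiviral effectors and 4 of 15 class I genes. These counts take tested genes at any FPKM, so they are not the measured genes above. Among all 9492 tested genes matched to a promoter, 276 held the core (2.908%), and among all 27025 promoters searched 943 did (3.489%). Only 9492 of the 14391 tested genes were matched to a promoter, so no share is compared between called and uncalled genes. Irf7, Oasl2, Xaf1 and Tap1 rose and held no core in the promoter searched, and Oas1a held the core and was not called. A match is a description of letters, and it does not show that a factor bound.

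Most genes of antigen presentation by class I molecules rose. Of 21 measured genes 15 rose and none fell, with a median log2 ratio of 0.92. B2m, the invariant light chain, went from 253 to 735 FPKM, 2.90-fold higher, and H2-D1, a classical heavy chain, from 103 to 313. H2-Q6 and H2-Q7, of the Qa-2 group, went from 0.777 to 10.6 FPKM and from 2.94 to 24.7. Class I genes are near-identical copies, and reads may have been split between them. Tap1, the peptide pump, went from 5.14 to 12.7 FPKM and Nlrc5, the transactivator of class I genes, from 2.06 to 4.80. The immunoproteasome subunits Psmb8 (1.17 to 8.96 FPKM) and Psmb9 (1.99 to 8.76) rose, whereas of the 35 other measured proteasome genes of the constitutive list none rose and Psmc6, a base ATPase, fell from 103 to 71.5. The PA28 subunit Psme2, at 269 and 442 FPKM, was not called.

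**Figure D3:**
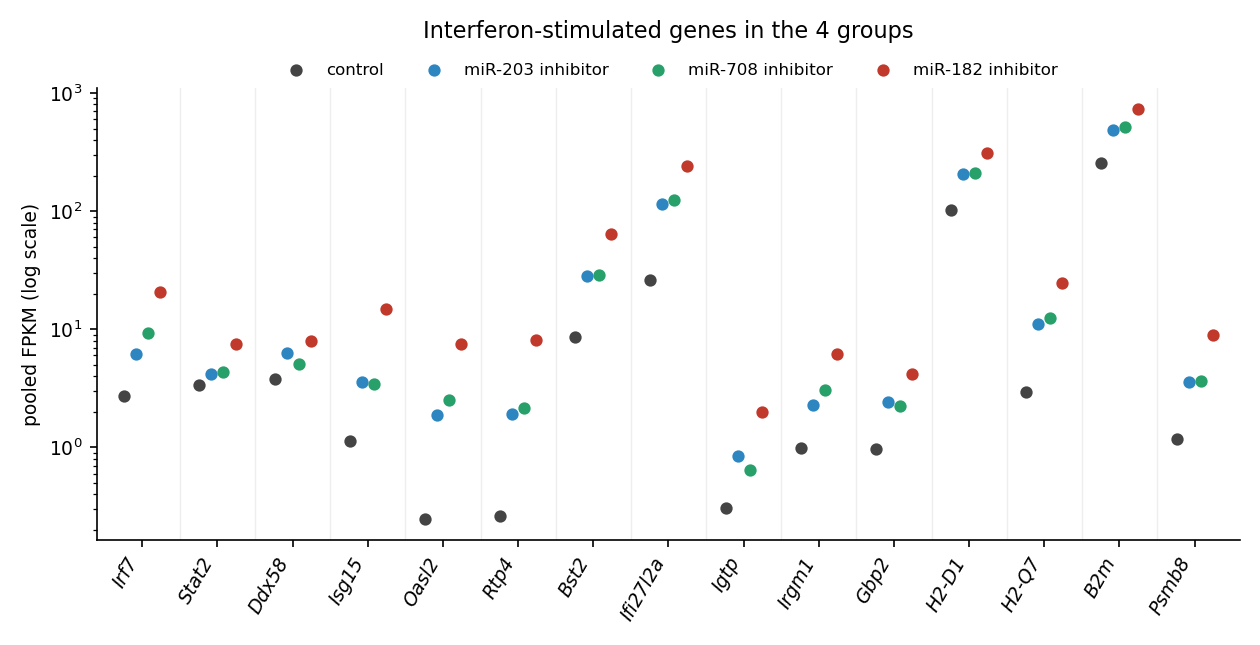
Pooled FPKM (vertical, log scale) of 15 interferon-stimulated genes (horizontal) in the control, miR-203, miR-708 and miR-182 inhibitor groups, 1 point per group. For each gene the control is lowest and the miR-182 inhibitor group highest, as for Isg15 at 1.13, 3.58, 3.46 and 14.9 FPKM.

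Some complement and chemokine genes rose too. Of 13 measured complement genes 8 rose and none fell. Cfb, factor B of the alternative pathway, in a locus shared with 2 other genes, went from 3.73 to 24.3 FPKM, C2 from 3.60 to 11.3, C3, the central component, from 130.1 to 284, and Serping1, the C1 inhibitor, from 43.4 to 89.4. Of 11 measured chemokines 5 rose and none fell, 7 of them measured only through the inhibitor group. Ccl8, a monocyte attractant, went from 1.32 to 11.03 FPKM, and Cxcl12, the ligand of Cxcr4, from 9.73 to 21.7. Ccl11 (eotaxin) reached 2.25 FPKM from 0.633, and with the other inhibitors it stood at 2.26 and 2.30. Of 15 measured NF-kappa-B components and targets 3 rose and 1 fell. Nfkbia, the feedback inhibitor, went from 11.8 to 20.04 FPKM, and Vcam1, an adhesion molecule, from 2.24 to 4.29.

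A part of the cell cycle genes rose. Of 39 measured genes of origin licensing and the replication fork 12 rose and none fell, with a median log2 ratio of 0.30. The helicase subunits Mcm5 and Mcm6 reached 4.84 FPKM from 1.68 and 7.51 from 3.10. Lig1, the ligase of lagging-strand synthesis, in a locus shared with 1 other gene, went from 3.81 to 8.53 FPKM. The other inhibitor groups had Lig1 at 3.68 and 3.87 FPKM, next to the control. Nucleotide supply and replication chromatin genes had 8 rises among 15 measured, such as Tk1 (thymidine kinase), from 9.29 to 18.7 FPKM, Rrm2, of ribonucleotide reductase, from 12.7 to 20.4, and Hells, a chromatin remodeler, from 7.25 to 16.3. Replication-dependent histones had 10 rises among 25 measured and no fall, with Hist1h4i at 3.76 and 8.97 FPKM, although histone genes are near-identical copies. Among the 25, 8 were measured only through the inhibitor group, which favours rises.

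Calls among mitotic genes were in the same direction. Of 31 measured mitotic kinases, cyclins and E2F factors 14 rose and none fell, with a median log2 ratio of 0.54, and of 50 kinetochore, spindle and cohesion genes 23 rose and none fell, with a median of 0.44. Plk1, the polo-like kinase, went from 2.79 to 6.79 FPKM, Ccnb2 (cyclin B2) from 4.11 to 9.05, and Foxm1, a factor of late cell cycle genes, from 1.62 to 3.49. Top2a, the mitotic topoisomerase, reached 16.99 FPKM from 9.44, and Spc24, of the NDC80 complex, 4.40 from 1.37. All 31 of the kinase list and 49 of the 50 of the kinetochore list had a log2 ratio above 0. In the former 4 genes and in the latter 11 were measured only through the inhibitor group, which favours rises. Among CDK inhibitors and p53 targets, 1 of 19 rose and 3 fell. Cdkn1c (p57), which is imprinted, rose from 16.2 to 37.8 FPKM, Gadd45a, a stress-induced growth arrest gene, fell from 53.6 to 17.6, and Cdkn2b (p15) fell from 22.997 to 13.7. Cdkn1a (p21) stood at 253 and 263 FPKM and was not called.

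Many extracellular matrix genes rose, some from high levels. Of 14 measured fibrillar and fibril-associated collagens 10 rose and none fell. Col3a1 went from 389 to 841 FPKM, 2.16-fold higher, and Col1a1, the main chain of type I collagen, from 336 to 612. Col6a3, of the beaded filaments, stood at 254 and 359 FPKM and was not called. Of 18 genes of collagen maturation and crosslinking 11 rose and none fell. Lox (lysyl oxidase) went from 52.1 to 95.7 FPKM, Pcolce, an enhancer of procollagen cleavage, from 147 to 315, and Loxl3, a lysyl oxidase-like enzyme, from 1.86 to 6.39.

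Matrix glycoproteins and proteoglycans had 24 rises among 33 measured genes and no fall, with a median log2 ratio of 0.74. The miR-182 inhibitor value was above both other inhibitor groups in 32 of the 33. Efemp2, an elastic fibre organiser, went from 149.9 to 368 FPKM, Mfap4, a microfibril protein, from 4.38 to 14.8, Prelp, a leucine-rich matrix proteoglycan, from 28.6 to 65.5, and Sparc, a collagen-binding protein, from 718 to 1204. Of 28 measured metalloproteinases and inhibitors 19 rose and none fell, so proteases and their inhibitors were both among the rises. Mmp2, a gelatinase, went from 43.6 to 119.8 FPKM, Mmp14, its membrane activator, from 27.9 to 57.4, and Timp1 and Timp2, their inhibitors, from 26.1 to 75.1 and from 20.5 to 46.5. The basement membrane, which surrounds mature adipocytes, had fewer calls, 4 rises and 1 fall among 14. Nid2 (nidogen 2) rose from 10.6 to 26.5 FPKM, Lamb2 (laminin beta 2) fell from 22.9 to 15.9, and Col4a1, its main collagen, at 277 and 363, was not called. Integrins and cadherins had 4 rises among 16, with Cdh11, a mesenchymal cadherin, at 6.82 and 12.95 FPKM, and 5 of 22 actin genes rose, among them Flna (filamin A) from 46.2 to 75.5.

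Most measured markers of preadipocytes and progenitors rose. Of 18 measured 14 rose and 1 fell, with a median log2 ratio of 0.74, and the list shares Pdgfra, Dlk1, Cxcl12 and other genes with lists above and below. Among the 18, 4 were measured only through the inhibitor group, which favours rises, and Cd34 and Pi16 are among them. Ly6a (Sca-1), a surface marker of adipose progenitors that is also induced by interferon, went from 29.1 to 112 FPKM, 3.83-fold higher. Dlk1 (Pref-1), which restrains adipogenesis, went from 58.9 to 112 FPKM, Cd34 from 0.465 to 1.45, and Pi16, of an early progenitor pool, from 0.562 to 2.09. Zfp423, a committing factor of preadipocytes, stood at 10.9 and 11.1 FPKM and was not called. These markers moved with the matrix and cell cycle genes, and the part of cell composition in either was not tested.

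Growth factor pathways had calls among ligands, receptors and secreted modulators. Of 23 measured Wnt genes 6 rose and none fell, led by the antagonists Sfrp2, from 11.6 to 31.7 FPKM, and Sfrp1, from 3.55 to 8.997, and by Wisp2, a secreted factor of progenitors, from 5.21 to 13.6. Among the 23, 5 were measured only through the inhibitor group, which favours rises. Ctnnb1 (beta-catenin), the effector, stood at 177 and 209 FPKM and was not called. Of 12 IGF axis genes 4 rose, with Igfbp7, a binding protein, going from 89.01 to 175 FPKM. Of 23 PDGF, FGF and VEGF genes 10 rose and 2 fell. The receptors Pdgfrb (6.67 to 11.5 FPKM) and Fgfr1 (46.5 to 74.03) rose, and the ligands Vegfa (564 to 334) and Fgf21 (33.9 to 20.9) fell. Of 29 TGF-beta and BMP genes 6 rose, among them the receptor Tgfbr2 from 15.1 to 25.5 FPKM, and Bmp3, a BMP antagonist, fell from 5.18 to 3.94. Imprinted growth genes had 6 rises among 14, such as Peg10 from 13.5 to 26.99 FPKM. H19, an imprinted long noncoding RNA, stood at 41.5 FPKM in the control and 69.1, 73.9 and 77.6 in the miR-182, miR-203 and miR-708 inhibitor groups, with the miR-182 group lowest of the 3. None of 13 Hippo effector genes and none of 7 Notch genes was called in the authors' deposited table, where 8.4% of tested genes were called higher and 6.23% lower.

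Several thermogenic messages fell, while Pparg and Cebpa did not. Ucp1, the uncoupling protein, had 203.03 FPKM in control cells and 67.7 after the miR-182 inhibitor, and stood at 159 and 146 in the other inhibitor groups. Cidea, a lipid droplet protein of brown fat, in a locus shared with 1 other gene, was at 297 FPKM in the control, 56.2 with the miR-182 inhibitor, and 157 and 146 with the others. Both genes were thus lowest in the miR-182 inhibitor group, with the other inhibitors in between. The cytochrome oxidase isoforms Cox8b (658 to 367 FPKM) and Cox7a1 (1414 to 870.3), enriched in brown fat and muscle, fell, and Cox8b stood at 631 and 589 with the other inhibitors, near the control. Of 18 measured brown fat effectors 6 fell and 3 rose. The rises were Adrb3, the beta-3 adrenergic receptor (37.96 to 55.3 FPKM), Ckb, the creatine kinase (8.90 to 11.7), and Otop1, an otopetrin proton channel (8.95 to 11.7). Elovl3 and Cpt1b, the muscle-type carnitine palmitoyltransferase, had log2 ratios of -0.027 and -0.38 and were not called.

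Regulators of brown fat had 2 rises and 1 fall among 18 measured, beside 8.73% and 6.72% of all measured genes. Prdm16, the brown fat coregulator, stood at 5.40 and 7.26 FPKM and Ppargc1a (PGC-1alpha), which drives mitochondrial biogenesis, at 23.9 and 21.1, and neither was called. Nrip1 (RIP140), a corepressor of oxidative genes, rose from 12.6 to 21.03 FPKM, and Nr1d1 (Rev-erb alpha), a clock repressor, fell from 19.6 to 10.95. Among 19 adipogenic transcription factors, Cebpa rose from 243 to 343 FPKM, Rxra, the partner of Pparg, from 19.1 to 29.3, and Zfp521, a repressor of adipogenesis, from 0.754 to 1.34. Cebpb, which acts early in adipogenesis, fell from 218 to 159.7 FPKM. Pparg stood at 136 and 139 FPKM and Srebf1 at 757 and 772, and neither was called.

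**Figure D4:**
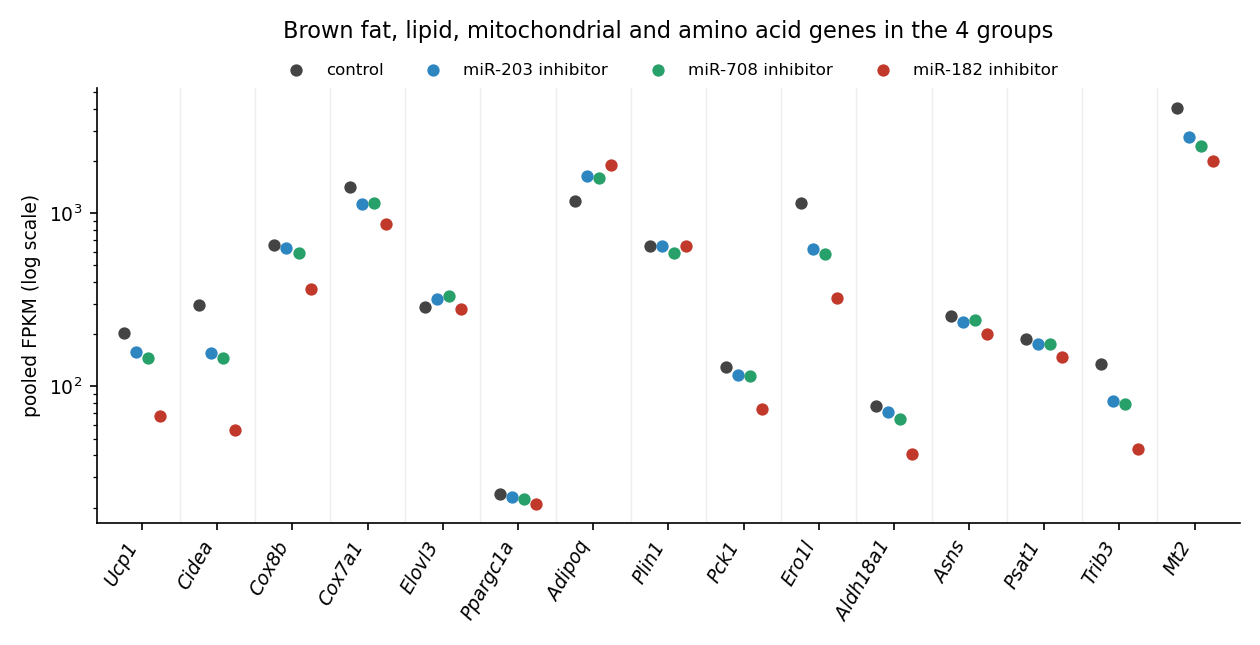
Pooled FPKM (vertical, log scale) of 15 brown fat, lipid, mitochondrial, folding and amino acid genes (horizontal) in the control, miR-203, miR-708 and miR-182 inhibitor groups, 1 point per group. Ucp1, Cidea, Ero1l and Trib3 are highest in the control and lowest in the miR-182 inhibitor group, Adipoq has the opposite order, and Plin1 and Elovl3 stay within narrow ranges.

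Lipid handling changed in single genes rather than as a whole. Of 23 measured lipid droplet and lipolysis genes 2 rose and 4 fell, with Mgll, the monoglyceride lipase, rising from 87.2 to 158 FPKM and Abhd6, a related lipase, falling from 11.3 to 4.42. Pnpla2, the adipose triglyceride lipase, stood at 2413 and 2414 FPKM, almost the same. Fatty acid and triglyceride synthesis had 6 falls and 1 rise among 31. Pck1, of glyceroneogenesis, fell from 129 to 73.7 FPKM, Dgat2, which adds the last acyl chain of triglyceride, from 152 to 104, and Lpin1, a phosphatidate phosphatase, from 238 to 176. The mitochondrial thioesterase Acot2 fell from 76.8 to 35.95 FPKM and the cytosolic Acot1 rose from 0.459 to 1.23, and these are close paralogs.

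Of 32 cholesterol genes 5 rose and 4 fell, so neither direction prevailed. Npc1, which exports cholesterol from lysosomes, fell from 44.9 to 12.3 FPKM, 3.66-fold lower, and Idi1 and Sqle, of sterol synthesis, from 22.7 to 12.3 and from 46.5 to 31.2. Mvk (mevalonate kinase) and Dhcr7 (the last reductase) rose from 10.9 to 21.4 FPKM and from 26.8 to 41.2, in the same pathway. Of 22 adipokines and secreted factors 11 rose and 4 fell. Adipoq rose from 1178 to 1904 FPKM, and acute phase products rose too, with Saa3 going from 18.1 to 56.1 and Hp (haptoglobin) from 122.6 to 346. Apod, a lipocalin, went from 7.26 to 39.3 FPKM, 5.42-fold higher, and Lcn2, another lipocalin, fell from 40.6 to 13.4. Insulin signalling had 4 rises and 2 falls among 19. Irs1, a docking protein of the receptor, rose from 4.06 to 6.32 FPKM, Slc2a4 (GLUT4) fell from 229 to 172, and Akt2, the kinase downstream, was not called at 140.2 and 126.

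Nuclear genes of the respiratory chain were slightly lower as a group, and most were not called. The share called lower among all measured genes was 6.72%. Of 44 measured Complex I genes 5 fell and none rose, with a median log2 ratio of -0.23, and 41 of the 44 had the miR-182 inhibitor value below both other inhibitor groups, beside 35.7% of all measured genes. Ndufs4 went from 134 to 90.99 FPKM and Ndufa7 from 732 to 502. Of 26 Complex IV genes 6 fell, with a median of -0.30. Cox6a2, a muscle and brown fat isoform, fell from 15.1 to 4.96 FPKM, Cox5a from 1234 to 871, and Cox4i1, at 3370.2 and 2785, was not called. Complexes II and III had 1 fall among 14 (Uqcrq, 2639 to 1993 FPKM). Complex V had 1 rise (Atp5g1, 90.9 to 122) and 1 fall (Atp5s, 9.50 to 6.24) among 17. With the other inhibitors Atp5g1 stood at 122 and 125 FPKM, at or above the miR-182 inhibitor value. Of 12 transcripts of the mitochondrial genome mt-Co1 rose from 2460.3 to 4123 FPKM and mt-Nd3 fell from 2845 to 2016. The median log2 ratio of these 12 was -0.26, and 3 of them had a log2 ratio above 0.

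The calls among fuel oxidation genes were mostly falls. Of 37 genes of the TCA cycle and branched-chain amino acid breakdown 8 fell and none rose, with a median log2 ratio of -0.27. Cs (citrate synthase) fell from 1271 to 868 FPKM, Sucla2, of succinyl-CoA synthetase, from 536 to 346, and Bckdha, of the branched-chain ketoacid dehydrogenase, from 232 to 152. None of 19 fatty acid oxidation genes was called, although their median was -0.24, and Hadha, of the trifunctional protein, stood at 2408 and 1628 FPKM. Of 37 peroxisomal genes 5 fell and 1 rose. Phyh, of phytanate breakdown, fell from 109 to 53.1 FPKM, and the acyl-CoA oxidases Acox2 and Acox3 fell from 4.79 to 1.46 and from 37.9 to 20.5. Mitochondrial carriers had 5 falls and 2 rises among 37. Slc25a25, an ATP-Mg carrier, rose from 17.9 to 31.8 FPKM and Slc25a35, a carrier whose substrate is little known, fell from 36.1 to 16.7. Import and dynamics genes had no call among 34 and the mitochondrial ribosome 2 falls among 73, at medians of -0.012 and -0.067.

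Among lists with 5 or more measured genes, that of the ATF4 pathway had the lowest median. Atf4 is the transcription factor of the integrated stress response and drives amino acid synthesis and Ddit3. Of 25 measured genes 13 fell and none rose, with a median log2 ratio of -0.45. Atf4 itself fell from 249.8 to 159 FPKM, Ddit3 (CHOP) from 323 to 149, and Trib3, a pseudokinase induced by both, from 135 to 43.8. Gdf15, a stress-induced secreted factor, fell from 8.004 to 2.55 FPKM and Pycr1, of proline synthesis, from 14.1 to 7.64. Aldh18a1, which opens proline synthesis, fell from 77.7 to 40.96 FPKM and stood at 71.3 and 64.5 with the other inhibitors, nearer to the control. Asns (asparagine synthetase), at 254 and 202 FPKM, and Psat1, of serine synthesis, at 188 and 148, were not called. Of 37 tRNA synthetases only Wars fell, from 145 to 83.3 FPKM, and of 24 amino acid transporters Slc3a2, the shared heavy chain, fell from 77.4 to 55.8 while 3 rose.

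Folding in the endoplasmic reticulum divided. Of 25 measured genes 4 rose and 6 fell. Ero1l, the oxidase that renews disulfide bonds, fell from 1149.8 to 323 FPKM, 3.56-fold lower. Edem1 and Herpud1, of misfolded protein disposal, fell from 50.6 to 27.9 FPKM and from 65.9 to 39.2, and the stress sensors Ern1 and Atf6 from 8.14 to 5.02 and from 18.8 to 12.3. P4hb, a disulfide isomerase that also serves collagen hydroxylation, rose from 374 to 624 FPKM, and Hspa5 (BiP), the main chaperone, at 528 and 443, was not called. Antioxidant genes had 7 rises and 8 falls among 47. Hmox1 (heme oxygenase) fell from 559 to 181.8 FPKM and the metallothioneins Mt1 and Mt2 from 3869 to 2451 and from 4052 to 2008. Gpx7 and Gpx8, peroxidases of the endoplasmic reticulum, rose from 7.36 to 15.9 FPKM and from 17.4 to 30.2.

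Glycolysis and hypoxia genes had 6 falls and 1 rise among 27. Hk2 (hexokinase 2) fell from 174 to 122.6 FPKM, Egln3, a prolyl hydroxylase that marks HIF, from 157 to 97.4, and Slc16a1, a lactate carrier, from 141 to 72.9, while Aldoa, the muscle-type aldolase, at 3800.1 and 3870.3, was not called. Glucocorticoid targets had 3 rises and 4 falls among 16, although both groups received dexamethasone. Hsd11b1, which regenerates active glucocorticoid, rose from 16.8 to 37.2 FPKM and Klf9 fell from 40.7 to 30.2. Immediate early genes had 5 falls and 1 rise among 17, with Atf3 falling from 8.17 to 3.54 FPKM and Egr2 rising from 6.65 to 13.98. Kruppel-like factors had 3 falls among 12, with Klf2 going from 8.30 to 3.75 FPKM. Clock genes had 4 falls among 17, including Nr1d2, from 6.58 to 3.17 FPKM, and Per3, from 9.52 to 5.74. Of 22 Hox genes only Hoxb6 was called, from 5.92 to 10.1 FPKM.

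Messages of cytosolic ribosomal proteins were slightly higher together. Of 81 measured genes 18 rose and none fell, 78 had a log2 ratio above 0, and the median was 0.24. Rpl3 went from 131 to 197 FPKM and Rpl41 from 759 to 1162. Against the mean of the other inhibitor groups the median was 0.012, and 31 of 81 lay above both groups, near the 36.0% of all measured genes. Lysosomal genes had 6 rises and 3 falls among 38, with Ctsk, a collagen-degrading cathepsin, rising from 19.4 to 37.04 FPKM and Mcoln1, a lysosomal calcium channel, falling from 55.4 to 35.9. Cytosolic and mitochondrial chaperones had 3 rises and 1 fall among 20. Cryab, a small heat shock protein, rose from 8.03 to 16.8 FPKM and Hspa4l, of the Hsp110 family, fell from 9.03 to 4.996. Among 27 ABC transporters, Abcb1a (P-glycoprotein) fell from 3.64 to 0.140 FPKM, and it stood at 0.153 and 0.144 in the other inhibitor groups. All 3 inhibitor groups were thus far below the control for Abcb1a.

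**Figure D5:**
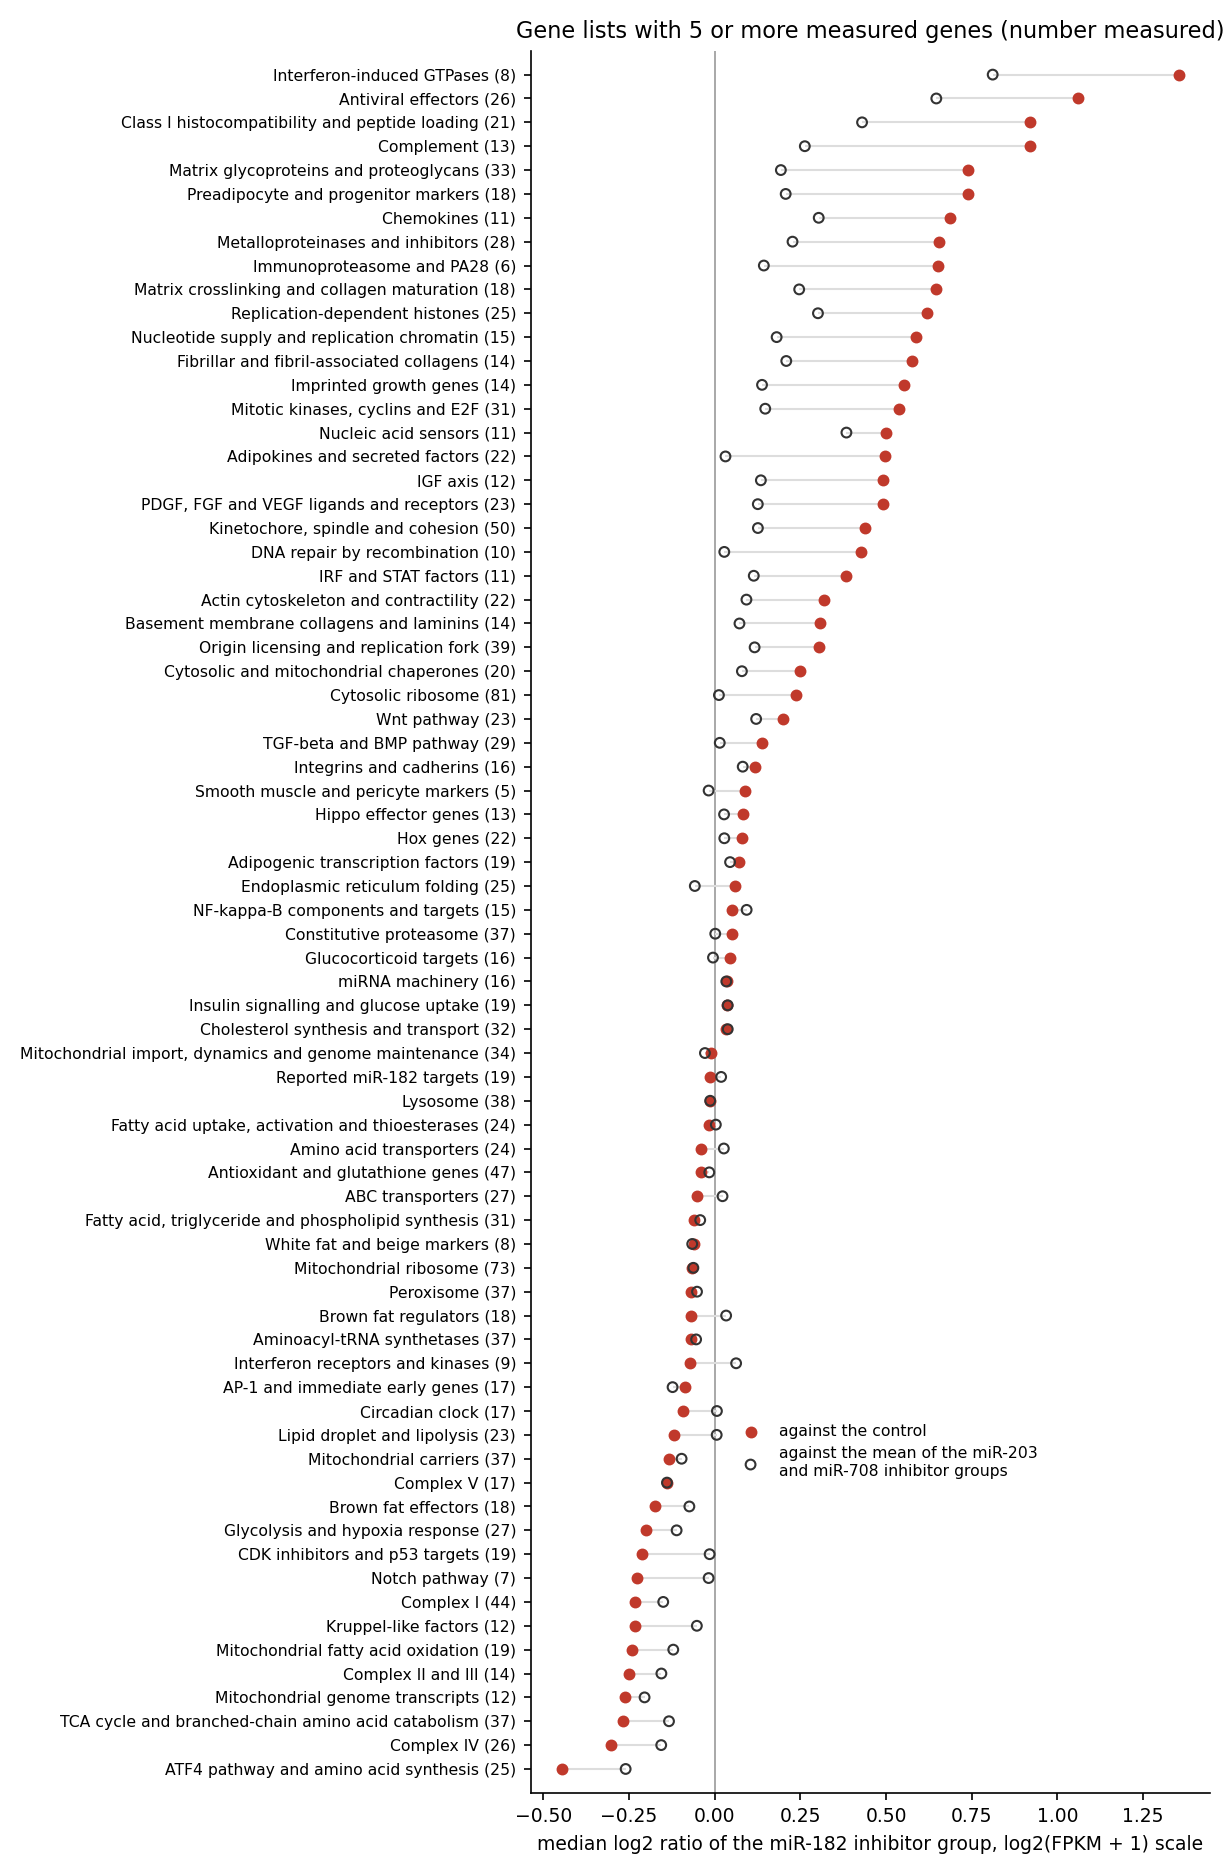
Median log2 ratio (horizontal, log2(FPKM + 1) scale) of each of the 72 gene lists with 5 or more measured genes (vertical, number measured in brackets), against the control (filled points) and against the mean of the miR-203 and miR-708 inhibitor groups (open circles). Antiviral effector, interferon-induced GTPase, complement, matrix, replication and mitotic lists lie to the right. Interferon receptors and kinases lie at -0.072 against the control. ATF4, Complex IV and TCA cycle lists lie to the left, and most open circles lie nearer to 0 than the filled points.

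The largest falls outside these lists were in genes of diverse roles. Porcn, the acyltransferase that lipidates Wnt proteins, went from 46.4 to 7.65 FPKM, 6.06-fold lower, and stood at 17.99 and 13.8 with the other inhibitors. Mreg (melanoregulin), of organelle transport, went from 23.7 to 3.63 FPKM, Coro6, a coronin, from 42.2 to 7.79, and Kalrn, an exchange factor of small GTPases, from 9.59 to 1.43. Cystm1, a small membrane protein, fell from 60.1 to 11.6 FPKM and Cxadr, a cell adhesion receptor, from 12.4 to 2.64. The secreted carbonic anhydrase Car6 went from 6.47 to 0.949 FPKM and Cdsn (corneodesmosin), known from skin, from 13.01 to 2.87. Sh2d6, an SH2 domain protein, and 1110059M19Rik fell from 17.4 to 3.55 FPKM and from 9.21 to 1.67.

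Levels in the other inhibitor groups give a second reference that does not use the control. Against their mean, the antiviral effectors had a median log2 ratio of 0.65 (1.06 against the control), the interferon-induced GTPases 0.81 (1.35), and class I genes 0.43 (0.92). Matrix glycoproteins had 0.19 (0.74), mitotic kinases 0.15 (0.54), Complex I -0.15 (-0.23) and ATF4 genes -0.26 (-0.45). Each of these 7 lists kept its sign and was nearer to 0 than against the control. The median over all measured genes was -0.00038 on this reference. Genes that passed 1 FPKM only through the miR-182 inhibitor group favour higher medians on this reference too. They were 12 of the 26 antiviral effectors and 6 of the 8 GTPases. Both comparisons use the same miR-182 inhibitor values, so their likeness is not independent support, and no test across samples could be made.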

How the data were processed

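RNA-seq was analysed for 4 samples, 2 given an inhibitor of miR-182 and 2 control-transfected, grouped by their titles. Alignment tools in the submitters' processing notes are TopHat2 2.0.9 and, for expression, Cuffdiff 2.1.1, on build mm10; annotation, options and strand setting: not given in the sources used here. For each gene the authors deposited FPKM as 1 value per group, a log2 fold change and Cuffdiff's p-value and q-value. Cuffdiff scales FPKM between samples, by a method not stated, so a change common to most genes cannot be seen. The deposited log2 fold changes matched log2 ratios of the pooled FPKM within 0.01 in 18931 of 18933 genes. Genes with p and q of 1 (4542) were taken as not tested. Depth is unknown, and no interval or own test was possible; calls are the authors' at q below 0.05. Dates had replaced 23 symbols, which were restored by identifier. A locus shared with another gene was listed for 416 called genes, whose reads may be divided between overlapping genes.

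From the FPKM, log2 ratios with a pseudocount of 1 were computed for genes at FPKM of 1 or more in either group, with medians and counts for 78 gene lists. Of the members, 495 passed the filter only through the inhibitor group and 315 only through the control. Some lists for which no such count is given also hold members that passed only through the inhibitor group, which favours rises there. The members and lists were chosen with earlier results of these data known. Genes were named by a rule: all measured reported targets, the 12 largest called rises and falls at FPKM of 5 or more, up to 4 called and 2 uncalled members per list by size or level, all of lists with 8 or fewer, the 10 largest called rises with an 8mer and the 8 most abundant called genes. Further members were named after their values were seen. Seed matches were counted in the 3′ UTR of GENCODE M21 for 11120 of the 12846 measured genes. Python 3.11.15, pandas 2.3.3, numpy 2.4.6 and matplotlib 3.10.9 were used, and the site search and counting were tested on simulated data. Other thresholds, pseudocounts, filters, scalings and the other inhibitor groups as reference were tried as alternatives. A few genes that the lists count are not reported here by name.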

Additional observations from a re-analysis of the deposited data

How the results depend on the processing

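No paired analysis was possible because each group has 1 pooled column without replicate numbers, and leaving out a replicate was not possible for the same reason. Genes called lower numbered 896 at q below 0.05, 575 at q below 0.01 and 526 with a ratio of at least 1.5, and those called higher 1209, 904 and 907. With the authors' p-values adjusted by the Benjamini-Hochberg method within this table alone, 1472 were higher and 1215 lower. Genes at 2-fold or more higher numbered 211 with a pseudocount of 1, 474 with 0.1 and 83 with 5, and those lower 166, 300 and 79. The median log2 ratio of 8mer genes minus that of genes with no site was -0.0403, and -0.0784, -0.0013, -0.0398 and -0.0164 from the shortest to the longest quartile of UTR length, and -0.0179 against the other inhibitor groups; the cause was not tested. Rescaling by 1.0237 or 1.0225 moved each of the 425 named genes and 72 list medians by less than 0.1 and reversed no called gene. Against the mean of the other inhibitor groups, 40 medians moved by over 0.1 and over 1.5 times. Of the 425 named genes, 326 were classed as moved and 92 as the same on this reference. The remaining 7 named genes changed sign: Ccl11 (-0.015), Rad51ap1 (-0.015), Fgf13 (-0.014), Atp5g1 (-0.016), mt-Tk (0.030), mt-Tn (-0.11) and mt-Ty (-0.082), with the cause not tested. At q below 0.01, 43 named genes lost their call. The share of promoters with a motif was not compared between called and other genes, since 9492 of 14391 tested genes had a promoter, under the 80% needed. Pooled FPKM without depth give no precision for low genes.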

Other observations

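Few called genes set the miR-182 inhibitor group apart while the other 3 groups lay close together. By a rule chosen after the values were seen, called genes at 5 FPKM or more in either group were kept if they differed at least 1.5-fold from the control and from the mean of the other inhibitor groups, on the log2(FPKM + 1) scale, and if that mean lay within 0.2 of the control in log2. Of 723 genes called higher 2 were left (0.277%), and of 672 called lower 3 (0.446%). Lig1, the replication ligase, stood at 8.53 FPKM with the miR-182 inhibitor and 3.81, 3.68 and 3.87 in the control, miR-203 and miR-708 groups. AL691505.1, a long noncoding RNA, stood at 5.45, beside 2.66, 2.60 and 3.36 FPKM. The falls were Cox8b, at 367 beside 658, 631 and 589 FPKM, Aldh18a1, at 40.96 beside 77.7, 71.3 and 64.5, and Pck1, at 73.7 beside 129, 117 and 114. None of the 4 with an annotated UTR held a miR-182 match of 7 or 8 bases. Neither did 9074 of the 11120 measured genes with a UTR, so this count does not set the 4 apart. Mitf, at 8.08 beside 4.29, 3.81 and 2.84 FPKM, missed the rule because the other inhibitor groups lay below the control.

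Called genes also lay next to each other in the genomic order of the measured genes, in runs of rises and in runs of falls. Genes that were not measured were skipped, so neighbours in a run may have other genes between them. On chromosome 13, for example, 5 neighbouring entries between 108158730 and 111361675 fell. The runs named below are examples of rises, and how many runs arise from gene order alone was not tested. On chromosome 15, 6 neighbouring genes between 74669082 and 75048837 of mm10 rose, namely Arc, Them6, Lynx1 and the lymphocyte antigens Ly6e, Ly6a and Ly6c1. Ly6e, which restricts viral entry, went from 17.8 to 67.6 FPKM and Ly6c1 from 2.23 to 12.2. On chromosome 17, H2-D1, H2-Q4, H2-Q5, H2-Q6 and H2-Q7 rose between 35262729 and 35443773, and on chromosome 11, Slfn9, Slfn8 and Slfn2, of the schlafen family, between 82979628 and 83070678. These families hold near-identical copies. Among long intergenic noncoding RNAs, 13 rose and 14 fell of 196 measured. Neat1, the scaffold of paraspeckles, fell from 1045 to 538 FPKM, beside 703 and 631 with the other inhibitors, and AW112010, an interferon-induced transcript, rose from 4.39 to 7.37. Mitochondrial tRNAs were among the most abundant called genes, with mt-Tg at 28713 and 20649 FPKM and mt-Tn at 18640.4 and 29573, and FPKM of such short transcripts depend on fragment selection.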
